A study of Mus musculus with 6 samples.

Results

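Etv1, Etv4 and Etv5 form the PEA3 group of ETS transcription factors, and all 3 were matched by symbol among the 32285 genes of the feature list. Their levels were followed across the cell classes of mouse pancreatic tumours after 24 h of treatment with a MEK inhibitor and a lysosomal inhibitor. On mouse build GRCm38 (mm10), in the GENCODE annotation, Etv1 (ENSMUSG00000004151) lay on the plus strand of chromosome 12 from 38779380 to 38870484. Etv4 (ENSMUSG00000017724) lay on the minus strand of chromosome 11 from 101769742 to 101785371, and Etv5 (ENSMUSG00000013089) on the minus strand of chromosome 16 from 22381309 to 22439719. All are protein-coding genes.

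PEA3 factors sit at the end of the receptor tyrosine kinase, MEK and ERK cascade. ERK signalling lifts the repressor Capicua (Cic) from Etv4 and Etv5 and protects the factors from degradation by the COP1 and DET1 ubiquitin ligase, so their transcripts are widely used as read-outs of the pathway. In development they act downstream of FGF receptors in branching epithelia and in mesenchyme, and in several carcinomas they drive invasion genes.

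All 6 mice, vehicle and treated, came from 1 engineered model of pancreatic cancer and carried p53LSL.R172H/+ and Pdx1-Cretg/+, in which Cre under the Pdx1 promoter switches on mutant p53 in the pancreatic lineage. Stromal and immune cells of the tumour are not of that lineage. Mice whose tumour measured 4 to 7 mm on ultrasound were assigned at random to vehicle (corn oil and water, 3 mice) or to 1 mg/kg trametinib, which inhibits MEK, with 40 mg/kg hydroxychloroquine, which blocks lysosomal degradation, both by mouth (3 mice). The 2 agents were given together, so their effects cannot be told apart. The ages of the mice are not given in the sources used here.

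Droplet libraries held 2384 to 12207 barcodes per mouse and 22996012 to 126645602 unique molecular identifiers (UMIs, counts of captured RNA molecules), and 37018 cells were kept. Levels are given in CPM, the UMIs of a gene scaled to the same total for every class and mouse. Vehicle 1 was the smallest library, with 2142 kept cells. Treated 1 and treated 2 had the most similar tumour cells (Pearson r of log2 levels across 15487 genes 0.996, against 0.882 to 0.958 for the other pairs of mice), so results were also computed with them counted as 1 sample. Libraries shared at most 22 barcodes. Fewer cells of a type and less RNA per cell cannot be told apart from a class sum, and all class names were rebuilt from marker genes.

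RefSeq (GRCm38.p6) gave windows for 2 start sites each of Etv1 and Etv5. Neither Capicua octamer, TGAATGAA or TGAATGGA, was found on either strand in the 4 windows of 300 bases (1.30% and 1.21% of 32851 promoter windows of that length hold them), nor was the AP-1 motif TGANTCA (7.81%). The 6-base core shared by both octamers, TGAATG, was searched after that result was known, and the window of the second Etv5 start held it 3 times. At least 1 match occurred in 12.7% of all windows and 3 or more in 0.170%. These matches are a description of letters, not of binding. The 250 bases before that start (chr16:22438369-22438618, minus strand, inside an annotated intron of Etv5) are shown because they hold all 3 cores, in capitals, the third on the opposite strand:
Etv5 second start: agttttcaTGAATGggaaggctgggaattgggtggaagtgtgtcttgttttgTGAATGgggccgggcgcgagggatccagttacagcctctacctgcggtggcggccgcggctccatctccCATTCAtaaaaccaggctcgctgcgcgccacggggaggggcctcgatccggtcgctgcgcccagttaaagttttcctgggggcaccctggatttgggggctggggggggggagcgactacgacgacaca

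Over vehicle and treated mice together, the 3 factors were highest in different cell classes. Over the 11 classes with at least 20 cells in at least 2 mice, Etv4 was highest in tumour and ductal epithelial cells (32.7 ± 6.74 CPM, SD, n = 6), acinar cells (31.9 ± 13.5, n = 3) and fibroblasts (30.3 ± 16.1, n = 6). Etv5 was high in macrophages and monocytes (28.1 ± 6.43 CPM, n = 6), tumour cells (25.3 ± 9.56, n = 6) and acinar cells (38.5 ± 28.3, n = 3). The acinar mean of Etv5 rested on treated 1, with 69.4 CPM in 27 cells, beside 32 CPM in treated 2 (25 cells) and 14 CPM in vehicle 3 (271 cells), and it was 23 CPM without treated 1, below macrophages and tumour cells. For Etv4 the acinar mean ran from 25.2 to 38.7 CPM leaving out 1 mouse. Median depth of these acinar cells was 2887, 3492 and 2160 UMIs in treated 1, treated 2 and vehicle 3. Tumour RNA carried over into acinar cells was not estimated. Etv1 was highest in fibroblasts (32.3 ± 20.9 CPM, n = 6) and in pericytes and smooth muscle cells (31.9 ± 23.5, n = 5). In the vehicle mice alone its means were 17.9 CPM in fibroblasts, 17.2 in endothelial cells and 16.1 in macrophages and monocytes (n = 3 each). In pericytes Etv1 was 34.9, 41.5 and 62.8 CPM in treated 1, 2 and 3, and 20.3 and 0 CPM in vehicle 2 and 3. In tumour cells the mean of Etv1 was 4.40 ± 4.66 CPM (n = 6).

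Below these, Etv1 came next in endothelial cells (17.0 ± 4.44 CPM, n = 6) and in macrophages and monocytes (13.5 ± 4.67, n = 6), then in acinar cells, tumour cells, conventional dendritic cells, neutrophils, T and NK cells, B cells and plasma cells. Etv4 came next in pericytes and smooth muscle cells (15.2 ± 7.55 CPM, n = 5) and endothelial cells (13.2 ± 13.5, n = 6), then in neutrophils, B cells, T and NK cells, macrophages and monocytes, plasma cells and conventional dendritic cells, all with means of at most 3.96 CPM. The order among these low classes is not fixed. In B cells the mean rested on 1 UMI in treated 1 (11.2 CPM) and 12 UMIs in vehicle 2. B cells lay above T and NK cells in 1 of 6 mice. Macrophages and monocytes were thus near the bottom for Etv4 (1.87 ± 1.17 CPM) and near the top for Etv5. Etv5 came next in fibroblasts (13.1 ± 1.66 CPM, n = 6), then in pericytes, neutrophils, endothelial cells, B cells, conventional dendritic cells, T and NK cells and plasma cells.

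Neighbouring pairs in these orders were compared by exact two-sided sign-flip tests on log2(CPM + 1) within mice (10 pairs per gene, Benjamini-Hochberg adjusted). None reached an adjusted p under 0.05, and none could have. For each gene most pairs rested on fewer than 6 mice. With every pair of 6 mice at its smallest p, the adjusted p would still lie above 0.05. These tests thus cannot decide whether neighbouring classes differ. The smallest p was for Etv5 in tumour cells over fibroblasts, higher in 6 of 6 mice (mean log2 difference 0.83, exact p = 0.0312, adjusted p = 0.312). That p of 0.0312 is the smallest that 6 mice allow. For Etv4 in fibroblasts over pericytes, 5 of 5 mice were higher (mean log2 difference 0.75, exact p = 0.0625, adjusted p = 0.625). Pericyte values rested on 5 mice.

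**Figure D1:**
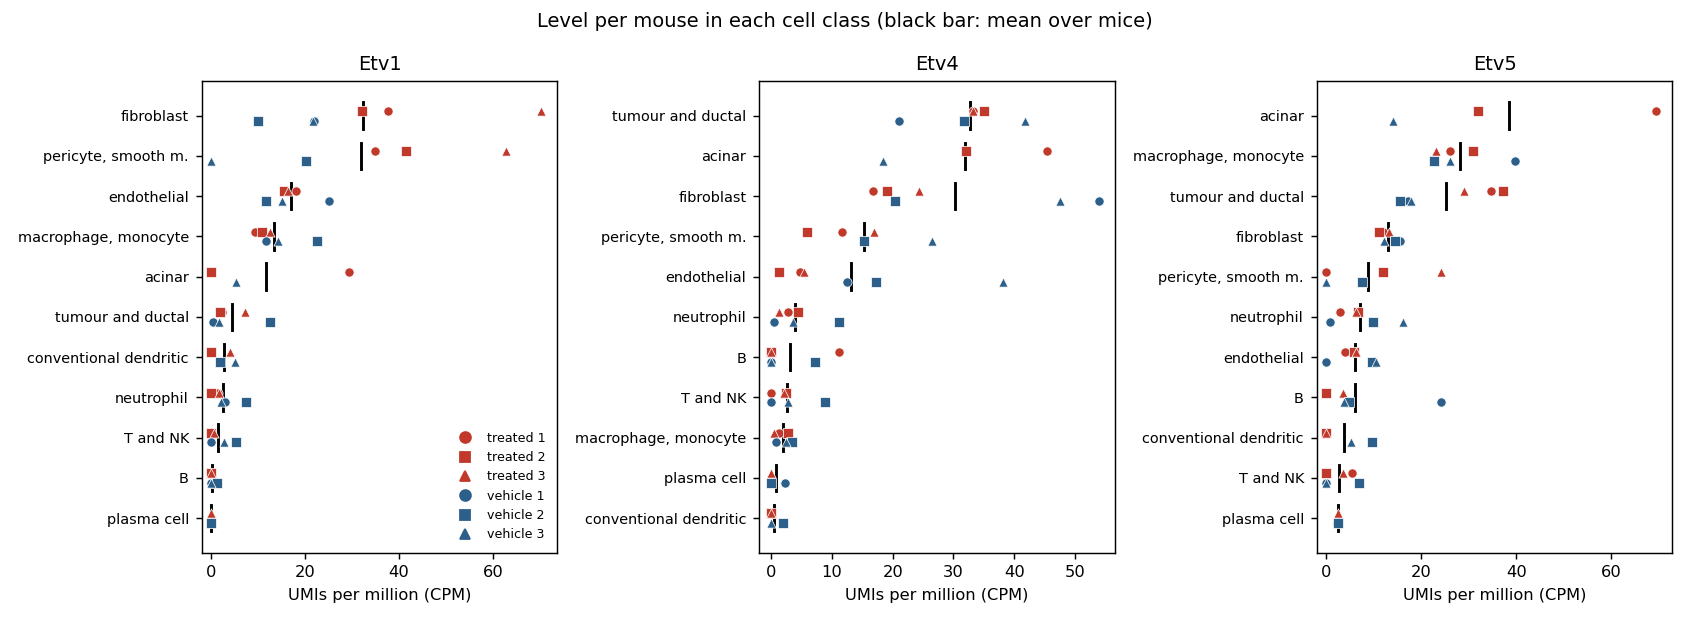
Levels in CPM (horizontal axis) of Etv1, Etv4 and Etv5 in each cell class, ordered by mean, with 1 point per mouse that had at least 20 cells and a black bar at the mean. By mean over vehicle and treated mice together, Etv1 peaks in fibroblasts and pericytes, and Etv4 in tumour cells, acinar cells and fibroblasts. Etv5 peaks in macrophages, tumour cells and acinar cells, the last with 1 mouse far above the others.

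Across the 11 class means the members were loosely alike, as a description over classes from the same libraries: Pearson r was 0.611 for Etv1 with Etv4, 0.479 for Etv1 with Etv5 and 0.660 for Etv4 with Etv5. The genes below were the nearest of 13212 compared, and no test was made. The genes nearest to Etv4 were Me1, Frk, Cldn12, Ctxn1 and Sh3d19 (r 0.967 to 0.979), all highest in tumour cells. Those nearest to Etv5 were Hpgd (r 0.972), Pomk, Spp1, Ptgr1 and Ppp1r9a (0.905 to 0.931), and those nearest to Etv1 were Tnfsf12, Tceal8, Itga9 and Vat1 (0.947 to 0.975), highest in fibroblasts or endothelial cells.

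The effect of treatment was tested in the 7 classes with at least 20 cells in every mouse, where 13 of 21 pairs of member and class passed the filter on low counts. Only 1 of the 13 passed edgeR's quasi-likelihood test at an adjusted p under 0.05, Etv4 in endothelial cells, where it fell. No member passed the filter in B cells or in T and NK cells, and only Etv5 did in neutrophils. Over all genes, edgeR called 1.11% of genes in endothelial cells (113 of 10157), 0.0169% in macrophages and monocytes, 0.161% in T and NK cells, and 0% in tumour cells, fibroblasts, neutrophils and B cells. The classes without a call had 1851, 2011, 434 and 61 genes below 0.05 before adjustment. In the same 4 classes DESeq2 called 447, 336, 4 and 3 genes, and none was a member.

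**Figure D2:**
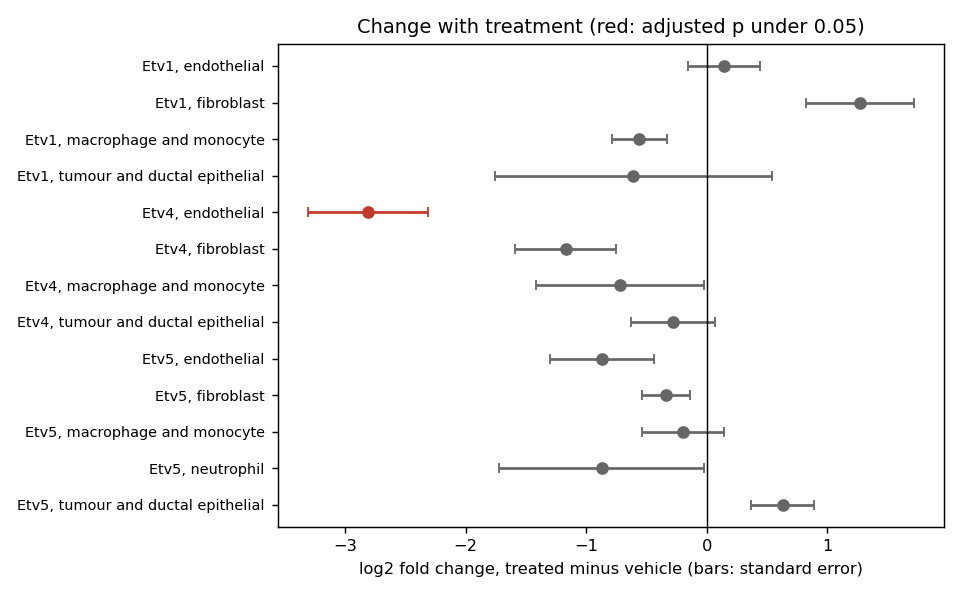
Log2 fold change of treated minus vehicle mice (horizontal axis, bars show the standard error) for the 13 pairs of member and class that were tested. Etv4 in endothelial cells, in red at -2.81, is the single call, and Etv5 in tumour cells (0.63) and Etv1 in fibroblasts (1.27) lie on the opposite side of 0.

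In tumour cells no member passed the test after 24 h of treatment, and Etv5 lay higher in every treated mouse than in any vehicle mouse. Etv5 stood at 34.7, 37.2 and 29.0 CPM in treated 1, 2 and 3 and at 17.2, 15.6 and 17.9 CPM in vehicle 1, 2 and 3. All treated mice lay above all vehicle mice, and 24.5% of genes in this class had groups that did not overlap, in either direction. Treated mice averaged 33.6 ± 4.22 CPM and vehicle mice 16.9 ± 1.18 CPM (SD, n = 3 each), but edgeR's log2 fold change was 0.63 ± 0.26 (SE) with an adjusted p of 0.415. The fit gave 1.55-fold where the CPM means lie further apart, because its scaling factors were 1.122 to 1.131 in treated and 0.760 to 0.973 in vehicle tumour cells. After that scaling Etv5 was 25.8 to 32.9 in treated and 16.1 to 23.6 in vehicle mice, still without overlap.

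Etv4 stood at 33.3, 35.1 and 33.3 CPM in treated 1, 2 and 3 and at 21.0, 31.8 and 41.8 CPM in vehicle 1, 2 and 3. The treated mice were close together and lay inside the range of the vehicle mice. The log2 fold change was -0.28 ± 0.35 (SE; edgeR adjusted p = 0.752), opposite in sign to the difference in CPM means (33.9 ± 1.03 treated, 31.5 ± 10.4 vehicle, SD, n = 3 each), and without vehicle 3 it was 0.13.

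Etv1 stood at 2.44, 1.98 and 7.25 CPM in treated 1, 2 and 3 and at 0.362, 12.6 and 1.77 CPM in vehicle 1, 2 and 3. A single mouse in each group was high, and the groups overlapped (log2 fold change -0.61 ± 1.15 SE, edgeR adjusted p = 0.842). In vehicle 2, 857 of its 954 Etv1 UMIs came from cluster 11, led by Ly6d, Agr2, Tff1 and Gkn1, where the level was 38.1 CPM. Without vehicle 2 the log2 fold change turned to 1.32.

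Because Etv4 and Etv5 were counted in the same libraries, the share of Etv5 among their UMIs is free of library scaling. In tumour cells it was 51.1% (1618 of 3169 UMIs, 95% Wilson interval 49.3% to 52.8%), 51.5% and 46.5% in treated 1, 2 and 3, and 45% (40.3% to 49.8%, 422 UMIs), 33% and 30% in vehicle 1, 2 and 3. The groups did not overlap, although the intervals of treated 3 (44.4% to 48.6%) and vehicle 1 did. The mean difference was 13.7 percentage points (49.7% ± 2.76 against 36.0% ± 7.94, SD, n = 3 each), with an exact two-sided permutation p of 0.1, the smallest that 3 against 3 allows, and 0.2 after adjustment over 4 classes. Without vehicle 1 the difference was 18.2 points.

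Fibroblasts had Etv5 shares of 37.9% ± 3.44 in treated and 28.0% ± 11.6 in vehicle mice (SD, n = 3 each, exact permutation p = 0.300). In macrophages and monocytes Etv5 made up 87.1% to 98.1% of the pair in every mouse. In endothelial cells the share was 60.8% ± 18.6 in treated and 19.2% ± 18.2 in vehicle mice (exact permutation p = 0.1), from 2 to 107 UMIs per mouse.

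The tumour cells of the 6 mice fell largely into different clusters. Cluster 5, led by Cdkn2a, Nnat and Meg3, held 71.5% and 72.0% of the tumour cells of treated 1 and 2 and fewer than 20 cells of each other mouse. Cluster 12 held 51.5% of those of treated 3, cluster 34 95.2% of vehicle 1, clusters 7, 11, 22 and 33 most of vehicle 2, and cluster 30 86.1% of vehicle 3. Cluster 22 as a whole was led by the islet genes Ppy, Gcg and Pyy beside Tff2, and 1 of its sub-clusters led by Ppy was left unnamed. In the tumour class as counted, 8 islet markers summed to 0.198 to 2.45 CPM per mouse. Within the treated mice 1 and 2, 63.7% and 66.5% of tumour cells belonged to sub-clusters with low keratins, named epithelial by a weaker rule; vehicle 1 had 34.3% and no other mouse had 20 such cells. These cells held Krt8 and Krt18 at 700 and 1076 CPM, against 2163 and 2878 CPM in the other tumour cells, and Epcam at 5.91 against 1098 CPM. Krt19 was at 73.2 against 832 CPM and Cdh1 at 6.37 against 168 CPM. Vim was higher in the low-keratin cells (2245 against 1644 CPM), as was Cdkn2a (1858 against 696 CPM).

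Both factors were higher in the low-keratin cells of the same mouse. Etv4 was 39.6, 42.8 and 28.3 CPM there in treated 1, treated 2 and vehicle 1, against 22.5, 18.4 and 18.0 CPM in their other tumour cells. Etv5 was 39.2, 41.9 and 25.8 CPM, against 27.0, 27.1 and 13.7 CPM. All 3 mice showed the same order for both genes.

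Leaving the low-keratin cells out, Etv4 was 22.5, 18.4 and 33.3 CPM in treated 1, 2 and 3 and 18.0, 31.7 and 41.8 CPM in vehicle 1, 2 and 3. The groups overlapped, and the log2 fold change was -0.67 (edgeR adjusted p = 0.524), against -0.28 with all tumour cells. Etv5 was 27.0, 27.1 and 28.9 CPM in treated 1, 2 and 3 and 13.7, 15.6 and 17.9 CPM in vehicle 1, 2 and 3, again without overlap. For Etv5 the log2 fold change was then 0.48 (edgeR adjusted p = 0.473), and the Etv5 share differed by 18.1 points.

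**Figure D3:**
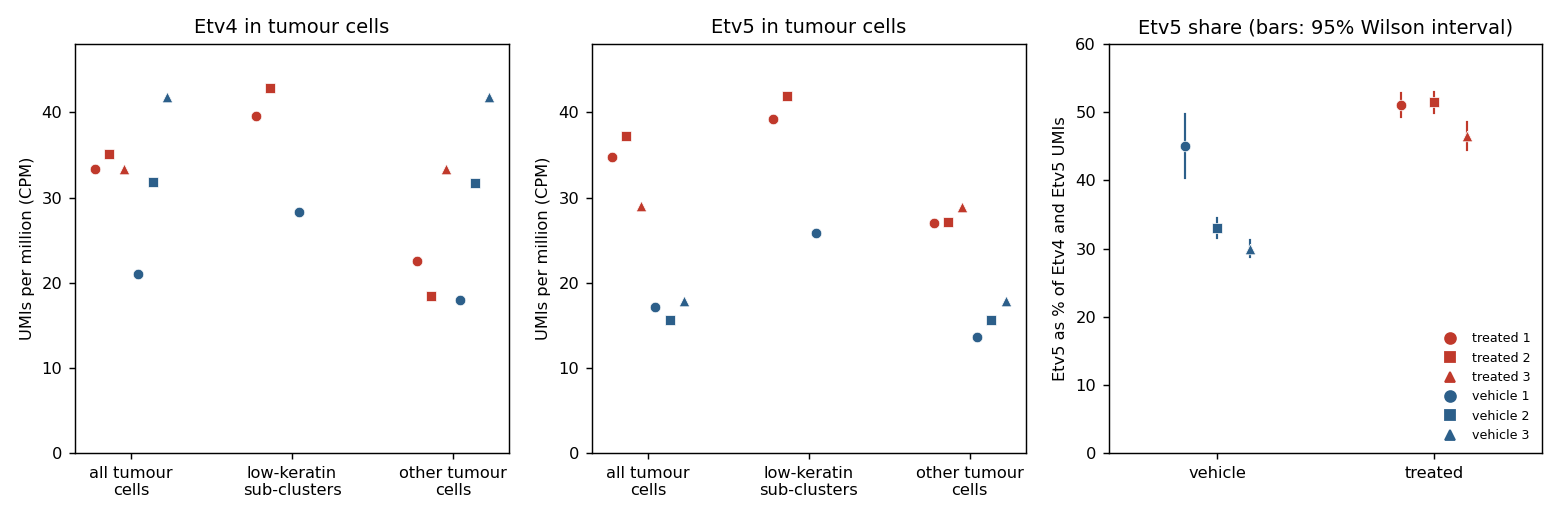
Left and middle, levels in CPM of Etv4 and Etv5 per mouse in all tumour cells, in low-keratin sub-clusters (3 mice had at least 20 such cells) and in the other tumour cells. Right, Etv5 as a percentage of Etv4 and Etv5 UMIs, with 95% Wilson intervals for counting error: the treated mice lie at 46.5% to 51.5%, the vehicle mice at 30% to 45%.

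Where 1 cluster held tumour cells of both groups, the Etv5 difference was not uniform. In cluster 7 Etv5 was 26.6 CPM in treated 3 and 16.0 in vehicle 2, and in cluster 30 it was 26.7 CPM in treated 3 and 17.9 in vehicle 3. In cluster 12 it was 25.2, 15.3 and 32.2 CPM in treated 1, 2 and 3, and 19.3 and 34.3 CPM in vehicle 2 and 3, so the groups overlapped. In cluster 34 it was 20.4 CPM in treated 3 and 17.3 and 22.2 CPM in vehicle 1 and 2. In cluster 11 it was 14.1, 9.69 and 36.0 CPM in treated 1, 2 and 3 and 15.5 and 17.4 CPM in vehicle 2 and 3, again with overlap. In cluster 33 the order was reversed, with treated 1 at 6.71 CPM (5 UMIs in 22 cells) below vehicle 2 (201 UMIs in 547 cells). In cluster 22 it was 44.4 CPM in treated 3 (2 UMIs) and 17.4 CPM in vehicle 2 (15 UMIs), too few UMIs to fix a level. The values of this paragraph come from 21 to 2207 cells and 2 to 1426 Etv5 UMIs per mouse and cluster, and no test was made on them.

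In tumour cells without a UMI of 15 mitosis genes, Etv4 was 19.0, 23.2 and 20.6 CPM in treated 1, 2 and 3 and 19.2, 22.1 and 31.0 CPM in vehicle 1, 2 and 3. Etv5 in them was 23.5, 26.3 and 23.5 CPM in the treated and 12.8, 14.1 and 13 CPM in the vehicle mice, without overlap (log2 fold change 0.79, edgeR adjusted p = 0.840). Cells with no such UMI are also the shallower ones.

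To compare cells at 1 depth, each tumour cell was thinned to 2000 UMIs and shallower cells were left out. Etv4 was higher in cells with a mitosis UMI than in cells without one in 6 of 6 mice. The levels in treated 1, 2 and 3 were 44.0, 42.3 and 33.7 CPM against 25.6, 25.0 and 29.5 CPM, and in vehicle 1, 2 and 3 they were 20.3, 36.0 and 39.2 against 15.1, 30.5 and 37.0 CPM. The mean log2 ratio was 0.40 ± 0.29 (SD, n = 6; exact sign-flip p = 0.0312, adjusted p = 0.281 over 9 tests). Etv5 was higher in 4 of 6 mice (0.34 ± 0.43, exact p = 0.125, adjusted p = 0.375). With cells thinned to 1000 UMIs instead, Etv4 was higher in only 4 of 6 mice (0.35 ± 0.92, exact sign-flip p = 0.438). Without thinning it was higher in 6 of 6 (0.54 ± 0.24, exact sign-flip p = 0.0312, adjusted p = 0.0938).

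Dusp6, an ERK phosphatase, is another transcriptional read-out of the pathway. Etv4 was higher in cells with a Dusp6 UMI in 3 of 6 mice (mean log2 ratio 0.04 ± 0.52 SD, exact sign-flip p = 0.812) and Etv5 in 4 of 6 (0.41 ± 0.70, exact p = 0.344). Etv4 was higher in cells with an Etv5 UMI in 4 of 6 mice, while the mean ratio was below 0 (-0.33 ± 1.98 SD, exact p = 0.938), with 0 to 17 Etv4 UMIs per mouse in those cells. None of the 9 ratios, 4 of which concern Etv1, passed the adjusted threshold. A ratio alone at the smallest exact sign-flip p of 6 mice could not pass. For Etv4 by mitosis genes that p of 0.0312 became 0.281 after adjustment. The tests therefore do not decide whether a single ratio differs from 0.

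The share of tumour cells with an Etv5 UMI at that depth was 5.82%, 7.44% and 5.31% in treated 1, 2 and 3 and 3.23%, 3.12% and 3.79% in vehicle 1, 2 and 3, without overlap (difference 2.81 points, exact permutation p = 0.1). For Etv4 the means were 6.13% ± 0.370 and 5.63% ± 2.32 (SD, n = 3 each, exact p = 0.900). In B cells, used as a background class, the shares at the same depth averaged 0.0966% and 0.182% for Etv5 in treated and vehicle mice and 0% and 0.546% for Etv4, from 12 to 366 cells per mouse. Median depth before thinning was 1215 to 3412 UMIs in B cells and 12183 to 38557 in tumour cells. Unthinned, 42.9% and 40.1% of treated and vehicle tumour cells had an Etv4 UMI.

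In endothelial cells Etv4 fell with treatment, the single change among the members that passed the test, and one already known from earlier work on these data. Etv4 stood at 4.67 CPM (8 UMIs), 1.30 (2 UMIs) and 5.33 (12 UMIs) in treated 1, 2 and 3, and at 12.5 (2 UMIs), 17.2 (44 UMIs) and 38.2 CPM (84 UMIs) in vehicle 1, 2 and 3. Every vehicle mouse lay above every treated mouse, and 28.4% of genes in these cells had groups that did not overlap. In vehicle 1 the value rests on 2 UMIs in 47 cells, where 3 counts would be 18.7 CPM, so it fixes no level. The means were 3.77 ± 2.16 and 22.6 ± 13.7 CPM (SD, n = 3 each), and the log2 fold change was -2.81 ± 0.50 (SE), 7.00-fold lower, with an edgeR adjusted p of 0.0269; 0.935% of genes were called lower.

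The call rested on few libraries. Without treated 1, treated 2 or vehicle 3 the adjusted p was 0.112, 0.0859 and 0.174, at log2 fold changes of -2.92, -2.45 and -2.09, and with treated 1 and 2 counted as 1 sample it was 0.0749. Without vehicle 1 it was 0.0202, and DESeq2 gave 0.00239.

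Etv5 in endothelial cells stood at 4.08, 5.85 and 6.22 CPM in treated 1, 2 and 3 and at 0, 9.76 and 10.5 CPM in vehicle 1, 2 and 3. Vehicle 2 and 3 were above the treated mice, and vehicle 1 had no UMI among 160317, which allows up to 18.7 CPM. The log2 fold change was -0.87 ± 0.43 (SE; edgeR adjusted p = 0.288). Etv1 stood at 18.1, 15.6 and 16.4 CPM in treated and 25.0, 11.7 and 15 CPM in vehicle mice, with overlap (0.14 ± 0.30 SE, adjusted p = 0.841).

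The 15 mitosis genes summed to 52.5, 39.6 and 152 CPM in endothelial cells of treated 1, 2 and 3 and to 156, 1349 and 963 CPM in vehicle 1, 2 and 3. Of the 12 mitosis genes tested, 6 fell and none rose (median log2 fold change -3.48, against 0.02 over all genes), with Cks2 and Ccnb2 at -2.94 and -3.58. Of the 20 S phase genes, 7 fell and none rose (median -1.66), among them the replicative helicase subunits Mcm5, Mcm6 and Mcm7 at -2.66, -2.35 and -1.68. Without treated 1, or without treated 2, no mitosis or S phase gene passed, nor did any with both counted as 1 sample. Without vehicle 3, 2 mitosis genes and 0 S phase genes passed. The part of cell division in the Etv4 result was not tested beyond the split that follows.

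In endothelial cells without any mitosis UMI, Etv4 was 4.12, 2.25 and 4.75 CPM in treated 1, 2 and 3 (4, 2 and 5 UMIs) and 10.3, 6.36 and 35.9 CPM in vehicle 1, 2 and 3 (1, 4 and 19 UMIs). The groups did not overlap, vehicle 2 was lower than over all cells (17.2 CPM), and Etv4 did not pass the filter on low counts, so no test was made.

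The 10 tumour markers summed to 129, 40.9 and 48.9 CPM in endothelial cells of treated 1, 2 and 3 and to 87.3, 472 and 305 CPM in vehicle 1, 2 and 3, against 2870 to 13064 CPM in tumour cells. Their median share of the tumour level was 0.559% to 5.89% in treated and 1.06% to 4.07% in vehicle mice, at which tumour Etv4 would amount to at most 1.96 CPM in any mouse. In endothelial cells with no UMI of Krt8, Krt18, Krt19, Epcam and Tff1, Etv4 was 5.38, 0.754 and 5.76 CPM in treated mice (7, 1 and 8 UMIs). It was 16.1, 16.2 and 39.6 CPM in vehicle mice (log2 fold change -3.00, edgeR adjusted p = 0.0433). Vehicle 1 and 2 rested on 2 and 3 UMIs in 38 and 54 cells, and vehicle 3 on 37 UMIs. The 9 endothelial markers summed to 7167 to 9522 CPM in every mouse, and 6 erythroid markers to 472 CPM in treated 3 and 412 in vehicle 1 against at most 12.3 in the other mice.

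**Figure D4:**
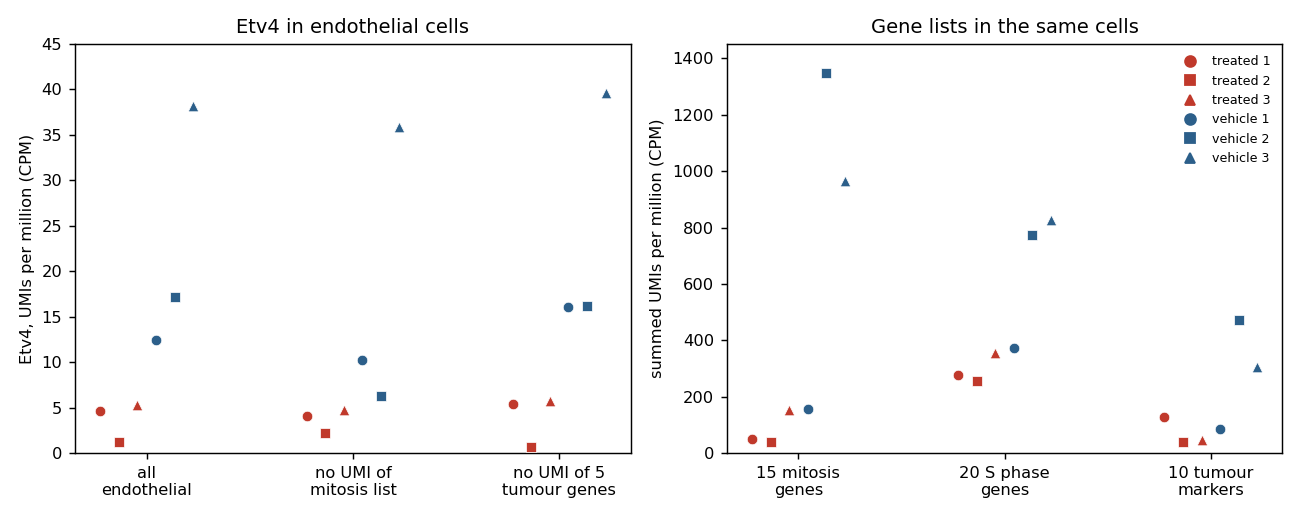
Left, Etv4 in CPM per mouse in all endothelial cells, in those with no UMI of the mitosis list and in those with no UMI of 5 tumour genes. Right, summed CPM of 15 mitosis genes, 20 S phase genes and 10 tumour markers in all endothelial cells; vehicle 2 and 3 are the highest mice for each list, while vehicle 1 (156 CPM for mitosis) lies beside treated 3 (152 CPM).

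Most endothelial cells of each mouse (72.2% to 100%) were in cluster 10, led by Fabp4 and Plvap. There Etv4 was 4.00, 0.958 and 6.09 CPM in treated and 12.5, 16.4 and 41.3 CPM in vehicle mice, and Etv1 was 20.8, 22 and 18.8 CPM in treated and 25.0, 12.4 and 15.4 CPM in vehicle mice. In cluster 26, led by the lymphatic genes Ccl21a and Mmrn1, Etv1 was 10.8, 2.02, 9.10 and 10.6 CPM in the 4 mice with at least 20 cells. All were lower than in cluster 10 of the same mouse, but they rested on 5, 1, 5 and 2 UMIs and were not tested.

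Whether the response of endothelial cells differed from that of tumour cells was tested in 1 model over both classes with a term for each mouse. For Etv4 the log2 fold change in endothelial cells minus that in tumour cells was -2.32 ± 0.52 (SE; edgeR adjusted p = 0.483). For Etv5 the difference was -1.38 ± 0.57 (adjusted p = 0.514). Against tumour cells, the fibroblast response differed by -0.99 ± 0.35 for Etv5 (adjusted p = 0.611) and by -0.85 ± 0.56 for Etv4 (adjusted p = 0.697), and the macrophage response by -0.76 ± 0.37 for Etv5 (adjusted p = 0.588). Of all genes, 0% passed in each of the 3 models, so a difference in response between classes was not shown for any member.

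In fibroblasts Etv1 and Etv4 lay on opposite sides, neither past the test. The mean of Etv1 over vehicle and treated mice together was highest in this class. Etv1 stood at 37.7, 32.1 and 70.2 CPM in treated 1, 2 and 3 and at 21.9, 10.1 and 21.8 CPM in vehicle 1, 2 and 3. All treated mice were above all vehicle mice, and 25.8% of genes in fibroblasts had groups that did not overlap. The means were 46.7 ± 20.6 and 17.9 ± 6.79 CPM (SD, n = 3 each), with a log2 fold change of 1.27 ± 0.45 (SE; edgeR adjusted p = 0.270).

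Etv4 stood at 16.7, 19.0 and 24.3 CPM in treated 1, 2 and 3 and at 53.9, 20.4 and 47.6 CPM in vehicle 1, 2 and 3. Vehicle 2 lay among the treated mice, so the groups overlapped (log2 fold change -1.17 ± 0.42 SE, edgeR adjusted p = 0.273). Etv5 ran from 11.1 to 13.2 CPM in treated and from 12.1 to 15.5 CPM in vehicle mice (log2 fold change -0.34 ± 0.20 SE, adjusted p = 0.433).

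The fibroblasts were drawn from different clusters in each mouse. Cluster 9, led by Col1a1 and Sparc, held 65.1% of treated 3, 60.2% of vehicle 1 and 45.4% of vehicle 3. Cluster 19, led by Dcn, Col1a1 and Tagln, held 42.7% and 27.6% of treated 1 and 2 and 62.9% of vehicle 2. Cluster 18, led by Col3a1 and Dcn, held 17.3% to 51.1% of 5 mice.

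In cluster 19 Etv1 was 70.5 and 64.2 CPM in treated 1 and 2 (130 and 60 UMIs) and 9.58 CPM in vehicle 2 (137 UMIs). In cluster 9 it was 78.8 CPM in treated 3, while the other 5 mice lay between 21.2 and 27.8 CPM with both groups mixed. In cluster 18 it was 11.8, 17.2 and 13.5 CPM in treated 1, 2 and 3 and 7.62 and 12.2 CPM in vehicle 2 and 3. The highest Etv1 levels thus lay in cluster 19 of treated 1 and 2 and in cluster 9 of treated 3.

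Etv4 was 27.6 to 71.9 CPM in cluster 9, with treated mice at 40.4, 36.0 and 27.6 and vehicle mice at 56.5, 41.1 and 71.9 CPM, and 4.49 to 12.9 CPM in cluster 18, with treated mice at 5.30, 5.51 and 4.49 and vehicle mice at 11.6 and 12.9 CPM. Within each of these 2 clusters the treated mice lay below the vehicle mice, which was not tested. In cluster 9 the nearest mice were treated 1 at 40.4 (60 UMIs) and vehicle 2 at 41.1 CPM (58 UMIs). In cluster 18 the treated mice rested on 9, 8 and 8 UMIs. In the whole class 25.8% of genes had groups that did not overlap, and no such share was taken within clusters. In cluster 19 it was 8.68 and 9.62 CPM in treated 1 and 2 and 20.6 CPM in vehicle 2.

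**Figure D5:**
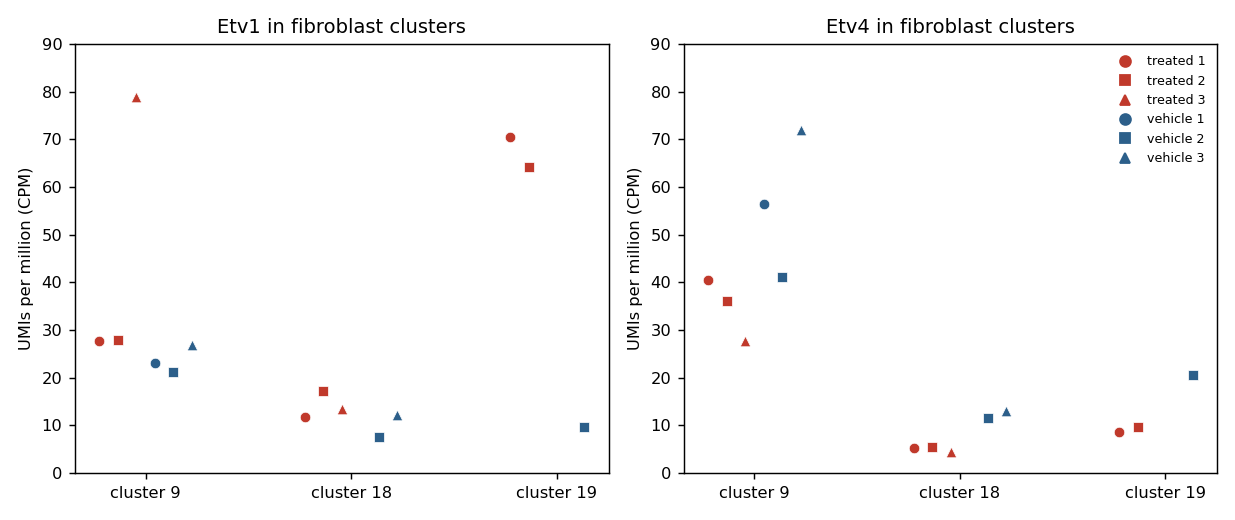
Levels in CPM of Etv1 and Etv4 per mouse in the 3 fibroblast clusters with at least 500000 UMIs in a mouse. Etv1 is above 60 CPM only in treated 1 and 2 within cluster 19 and treated 3 within cluster 9, and Etv4 is higher in cluster 9 than in the other clusters of the same mouse.

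At a depth of 2000 UMIs per cell, 8.21%, 5.56% and 10.3% of fibroblasts of treated 1, 2 and 3 had an Etv1 UMI, against 3.66%, 2.19% and 2.24% in vehicle 1, 2 and 3 (difference 5.32 points, exact permutation p = 0.1). For Etv4 the shares were 2.74%, 3.85% and 2.81% in treated and 9.76%, 4.22% and 6.09% in vehicle mice (-3.56 points, exact p = 0.1). At that depth neither pair of groups overlapped. At 1000 UMIs both did (exact permutation p = 0.2 each), and without thinning Etv4 did (exact p = 0.4). Tumour markers in fibroblasts summed to 57.4 to 166 CPM in treated and 84.0 to 338 CPM in vehicle mice, and tumour Etv4 carried over at the median marker share would be at most 0.882 CPM.

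Macrophages and monocytes expressed Etv5 at 26.1, 30.9 and 23.2 CPM in treated 1, 2 and 3 and at 39.8, 22.6 and 26.1 CPM in vehicle 1, 2 and 3. The groups overlapped, with vehicle 1 the highest mouse (log2 fold change -0.20 ± 0.34 SE, edgeR adjusted p = 0.892; without vehicle 1 it was 0.23). Etv1 stood at 9.46, 10.8 and 12.6 CPM in treated and 11.7, 22.5 and 14.2 CPM in vehicle mice (-0.56 ± 0.23 SE, edgeR adjusted p = 0.558), with overlap. Etv4 was between 0.457 and 3.36 CPM (-0.72 ± 0.70 SE, adjusted p = 0.795). Tumour Etv4 carried over at the median marker share would be 0.281 to 2.01 CPM in these cells, above the measured level in treated 1 (1.46 against 1.33 CPM), so the Etv4 level here was near that background.

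Within this class Etv1 was highest in cluster 0 in every mouse, led by Retnla, C1qa and Apoe. It was 40.6, 54.6 and 51.2 CPM there in treated 1, 2 and 3 and 65.1, 103 and 84.5 CPM in vehicle 1, 2 and 3, with 7 to 85 UMIs behind each value. No test was made within this cluster. In cluster 1, led by H2-Aa and C1qa, it was 7.22 to 12.9 CPM in treated and 7.84 to 13.2 CPM in vehicle mice. Cluster 0 made up 3.49% to 10.3% of the class in each mouse, with vehicle 2, the highest mouse for Etv1, at 10.3%.

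Among the macrophage clusters Etv5, like Etv1, was highest in cluster 0 in vehicle 1, 2 and 3 and in treated 3, but not in treated 1 and 2. In cluster 8, led by C1qa and Apoe, Etv5 was 45.9 and 43.6 CPM in treated 1 and 2 and 6.15 CPM in vehicle 2 (1 UMI). In cluster 4, led by Chil3, Saa3 and Arg1, it was 12.5 to 22.3 CPM in treated 1, 2 and 3 and 35.2 CPM in vehicle 3 (20 UMIs). Cluster 0 held it at 16.2, 18.2 and 35.0 CPM in treated mice (4, 6 and 54 UMIs). In vehicle mice it was 83.7, 42.4 and 44.0 CPM there (9, 35 and 13 UMIs), and no test was made within clusters.

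In neutrophils Etv5 stood at 2.83, 6.71 and 6.26 CPM in treated and 0.837, 9.87 and 16.2 CPM in vehicle mice, with overlap (log2 fold change -0.87 ± 0.85 SE, edgeR adjusted p = 0.839). Tumour Etv5 carried over at the median share of the tumour markers would be 2.94, 4.14 and 0.813 CPM in treated and 0.487, 2.97 and 1.35 CPM in vehicle neutrophils, so treated 1 was at that level. In pericytes and smooth muscle cells, acinar cells and conventional dendritic cells some mice had fewer than 20 cells, so no treatment test was made.

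In tumour cells none of 18 ERK output genes, which include the phosphatases, Sprouty and Spred feedback inhibitors and early response factors, passed the test (7 above and 11 below 0, median log2 fold change -0.18 against -0.06 over all genes). The 2 with the most UMIs were the AP-1 subunit Fos at 881 ± 187 CPM in treated and 504 ± 125 in vehicle mice (0.48, adjusted p = 0.511) and Ier3 at 312 ± 91.2 and 664 ± 413 CPM (-1.48, adjusted p = 0.427; SD, n = 3 each). In endothelial cells 0 of 16, in fibroblasts 0 of 18 and in macrophages 0 of 17 passed, with medians of -0.02, -0.11 and -0.09. In fibroblasts the zinc finger factor Egr1 was at 674 ± 177 and 490 ± 259 CPM, and in endothelial cells the cyclin Ccnd1 at 261 ± 111 and 346 ± 156 CPM.

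None of the 11 regulators of the factors, which include the repressors Cic, Atxn1, Atxn1l and Erf and the degradation genes Cop1, Det1 and Ddb1, passed in any of the 4 classes. In tumour cells 9 of 11 lay above 0 (median 0.18), with the ligase adaptor Ddb1 at 385 ± 102 and 281 ± 89.0 CPM in treated and vehicle mice and the COP1 adaptor gene Trib1 at 80.6 ± 9.19 and 56.5 ± 31.5 CPM. The medians were 0.07 in endothelial cells, -0.04 in fibroblasts and 0.19 in macrophages.

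Upstream, none of 15 receptor genes tested in tumour cells passed (10 above 0, median 0.19). The HGF receptor gene Met was at 73.6, 80.7 and 59.3 CPM in treated 1, 2 and 3 and at 22.8, 34.3 and 32.1 CPM in vehicle 1, 2 and 3, without overlap (0.90 ± 0.29 SE, edgeR adjusted p = 0.389), and Erbb3 overlapped. In endothelial cells none of 9 receptors passed, with the VEGF receptors Kdr at 649 ± 156 and 538 ± 43.4 CPM and Flt4 at 236 ± 27.7 and 176 ± 46.7 CPM. In fibroblasts none of 11 and in macrophages none of 7 passed. Of the ligands Fgf1, Fgf2, Fgf7, Fgf9, Fgf10, Fgf18 and Gdnf, none of 6 tested in tumour cells, of 1 in endothelial cells and of 7 in fibroblasts passed, and Fgf2 in fibroblasts was at 85.9 ± 4.58 and 88.1 ± 16.9 CPM.

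Of 14 other ETS factors tested in endothelial cells, none passed, 11 lay above 0 (median log2 fold change 0.37, against 0.02 over all genes), and 10 were higher in every treated than in every vehicle mouse. Of all genes in these cells 28.4% had groups that did not overlap, in either direction. The share of all genes higher in every treated mouse was not taken. Ets1, a regulator of vessel genes, was at 699 ± 157 CPM in treated and 462 ± 54.1 in vehicle mice (0.48, edgeR adjusted p = 0.291). Elk3 was at 365 ± 11.9 and 314 ± 68.8 CPM, with overlap. None of 17 passed in tumour cells, where epithelial Ehf was at 73.1 ± 78.9 and 57.4 ± 36.4 CPM, none of 15 in fibroblasts, and none of 16 in macrophages, where the myeloid factor Spi1 was at 313 ± 27.8 and 387 ± 27.7 CPM.

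Genes reported elsewhere as PEA3 targets, such as matrix metalloproteinases, Spp1 and Vim, showed no call in any of the 4 classes. Of 16 tested in tumour cells, 7 lay above and 9 below 0 (median -0.08), with osteopontin (Spp1) at 2967 ± 637 CPM in treated and 3638 ± 2534 in vehicle mice. In fibroblasts 8 of 13 lay below 0 (median -0.48). Of the 13, 4 were lower and 1 was higher in every treated than in every vehicle mouse. Over all genes 25.8% had groups that did not overlap, in either direction. Spp1 in fibroblasts was at 380 ± 254 and 1590 ± 1159 CPM (-2.23 ± 0.71 SE, adjusted p = 0.238). In endothelial cells 6 of 8 lay below 0 (median -0.36), with the membrane protease Mmp14 at 227 ± 62.2 and 312 ± 114 CPM. In macrophages 5 of 10 lay on each side.

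In tumour cells none of the division genes passed. All 15 mitosis genes lay below 0 (median -0.67) and 13 of 20 S phase genes did (median -0.36). These signs are those after the fit's scaling, with factors of 1.122 to 1.131 in treated and 0.760 to 0.973 in vehicle mice. Unscaled, mitosis genes summed to 839, 786 and 578 CPM in treated and 986, 643 and 1077 CPM in vehicle mice. S phase genes summed to 843, 821 and 521 CPM in treated and 746, 508 and 807 CPM in vehicle mice. Both sums overlapped. In fibroblasts 15 of 15 and 18 of 20 lay below 0 (-1.56 and -0.79), and in macrophages 15 of 15 and 17 of 20 (-2 and -0.39). In fibroblasts the mitosis sum was 201, 132 and 407 CPM in treated and 71.2, 937 and 804 CPM in vehicle mice, and its part in the Etv1 and Etv4 levels was not tested.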

How the data were processed

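The authors deposited, for each of 6 mice, unnormalized UMI counts by gene and barcode, made with Cell Ranger 5.0.1 per the file headers and on mm10 per the submitters' processing notes. Sources used here do not give the gene annotation release. Barcodes with at least 500 UMIs, 250 genes and at most 20% mitochondrial UMIs were kept (39928 of 44819), and the 2910 with the highest doublet scores (scrublet in scanpy 1.11.5, 0.8% per 1000 cells, since its own threshold called at most 0.599%) were left out. Cells were clustered (2000 variable genes, 30 components; 36 clusters, 220 sub-clusters), and a sub-cluster took the class with at least 3 markers at 50 CPM and 4-fold over the median sub-cluster; 1566 cells (4.23%) stayed unnamed. A second, weaker epithelial rule named 3053 cells. These naming rules were settled after clusters were seen and after 2 earlier versions; 2 sub-clusters were left unnamed by hand after the members' levels had been seen, before any test.

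UMIs were summed per mouse and class and tested with edgeR 4.0.16 (TMM, filterByExpr, quasi-likelihood, Benjamini-Hochberg over all genes of a class, threshold 0.05); DESeq2 1.42.0 was an alternative. Depth was 70523616 to 103825578 UMIs in treated and 22996012 to 126645602 in vehicle libraries; intervals cover counting error only. The script was tested on simulated counts with known folds. For cell shares and co-detection, cells were thinned to 2000 UMIs. Named genes are, per list and class, up to 4 passing genes with the smallest adjusted p, or the 2 most abundant where none passed, and per member the 5 nearest over class means. One allele of the model and 1 gene named by this rule are not reported here. Promoter windows reach 250 bases before and 50 after a RefSeq start. The members and lists were chosen with earlier results of these data known.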

Additional observations from a re-analysis of the deposited data

How the results depend on the processing

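Of 431 values recomputed under an alternative, 382 kept their direction and their side of the threshold, 4 lost the call, 15 counts moved and 30 changed sign. Part of the 382 could not have crossed the threshold. Exact tests of 3 against 3 mice reach no p below 0.1, and co-detection tests without 1 mouse cannot reach 0.05. For cell shares, the Etv5 share and co-detection ratios without 1 mouse, only the direction could change. Except where a value shows it, the cause of a change was not tested. The count of member calls, 1 over all classes, was 0 with treated 1 and 2 as 1 sample and 0 to 1 leaving out 1 mouse. In endothelial cells it was also 0 among cells with no mitosis UMI, where Etv4 failed the filter. Etv4 in endothelial cells had a log2 fold change of -2.74 with treated 1 and 2 as 1 sample and -3.19 to -2.09 leaving out 1 mouse (adjusted p 1e-05 to 0.174 over its alternatives). Mitosis genes lower in endothelial cells, an alternative added after the data were seen as were those without low-keratin cells, numbered 1 in cells with no UMI of 5 tumour genes, 0 with treated 1 and 2 as 1 sample and 0 to 14 leaving out 1 mouse. Genes called in endothelial cells were 113, against 209 by DESeq2, 765 with no filter, 34 with no UMI of 5 tumour genes, 0 with no mitosis UMI, 0 with treated 1 and 2 as 1 sample and 0 to 791 leaving out 1 mouse; macrophages had 2, against 209 by DESeq2, 27 with no filter and 0 with treated 1 and 2 as 1 sample, and leaving out 1 mouse gave 0 to 3 in fibroblasts. With the replicate number as a block, 65 genes were called in endothelial cells and 5 in macrophages, Etv4 in endothelial cells was -2.87 (adjusted p = 0.0323), Etv5 in tumour cells 0.64, the Etv5 share difference 13.7 points and Etv1 in tumour cells 0.52; no member's call changed. Deviations of same-numbered mice correlated at -0.192 to 0.0233 in tumour cells, -0.0433 to 0.0926 in endothelial cells, -0.0693 to 0.125 in fibroblasts and 0.0213 to 0.156 in macrophages; no class had all 3 pairs over 0.1, so the numbers were not taken to pair mice. Log2 fold changes that changed sign were Etv1 in endothelial cells (-0.37 with no UMI of 5 tumour genes, -0.15 with no mitosis UMI, -0.13 to 0.26 leaving out 1 mouse), Etv5 in macrophages (-0.45 to 0.23), Etv1 in tumour cells (-1.44 to 1.32) and Etv4 in tumour cells (-0.56 to 0.13; -0.67 without low-keratin cells). S phase genes lower in endothelial cells, 7 in the reported fit, numbered 0 to 18 leaving out 1 mouse and 3 with the block, also added after the data were seen. Differences in response from tumour cells ran, leaving out 1 mouse, from -1.28 to 1.2 for Etv1 in endothelial cells, -0.39 to 2.38 in fibroblasts and -1.63 to 0.30 in macrophages, and from -1.24 to 0.05 for Etv4 in macrophages. Among co-detection ratios, thinning to 1000 UMIs gave -0.37, -0.19 and -1.19 for Etv1, Etv4 and Etv5 by Dusp6, and no thinning gave -0.12 for Etv1 by Dusp6, 0.07 for Etv1 by Etv5 and 0.25 for Etv4 by Etv5. Leaving out 1 mouse gave -0.10 to 0.20 for Etv4 by Dusp6, -0.61 to 0.28 for Etv1 by Etv4 and -0.60 to 0.44 for Etv4 by Etv5. Differences in the share of cells with a UMI became 0.0671, -0.211 and 0.241 points at 1000 UMIs for Etv1 and Etv4 in tumour cells and Etv5 in macrophages, and 1.63, 1.91 and 1.69 points without thinning for Etv1 in tumour cells, endothelial cells and macrophages, and 4.16 and 4.96 for Etv5 in fibroblasts and macrophages. Etv4 in endothelial cells rested on 2 to 84 UMIs per mouse.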
